A study of Danio rerio with 4 samples.

Results

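The transcripts described here were abundant in whole zebrafish embryos at both stages sampled and had about the same relative abundance at each. They were chosen from the measured values themselves: a transcript was included when it had at least 200 TPM in all 4 samples and when its mean at bud divided by its mean at sphere lay between 0.667 and 1.5. TPM is a measure of abundance scaled for transcript length and for the total of the sample, so levels can be set side by side between transcripts as well as between samples. Of 24573 transcripts, 339 had at least 200 TPM in every sample, and 190 of these met the ratio as well. They made up 56.0% of the transcripts that abundant and 0.773% of all transcripts in the table.

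The samples were pools of 50 wild-type embryos of the TLAB strain, with 2 replicates at bud (10 hpf), when gastrulation ends, and 2 replicates at sphere (4 hpf), a blastula stage. The embryos of both stages were untreated, and total RNA was sequenced after removal of ribosomal RNA. Each sample is a mixture of all embryonic cells, so fewer cells of a type and less RNA per cell cannot be told apart. Every sample sums to the same total, so an equal TPM at both stages is an equal share of the RNA measured and not an equal number of molecules per embryo, and no sequencing depth can be read from the values.

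An early zebrafish embryo runs on mRNA laid down by the mother until its own genome is switched on around the blastula stages. Maternal mRNAs are then cleared, some quickly and some slowly, while zygotic transcription supplies new copies of many of the same mRNAs and also of genes the egg did not express. A transcript can therefore hold its share of the pool by persisting, by being replaced, or by both, and total RNA from whole embryos does not separate these. Genes that every cell uses, such as those for actin, ubiquitin and translation, are the usual examples of transcripts present throughout. Being present at both stages does not require a steady share.

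Marker genes of the stages were checked first. Of the genes listed as stage markers, 1 maternal and oocyte gene and 1 zygotic gene could be named. The egg coat gene zp3c had 0.850 and 1.22 TPM at bud, against 76.4 and 121 TPM at sphere, and the anterior patterning gene otx2a had 46.6 and 66.2 TPM at bud, against 9.73 and 3.98 TPM at sphere. The differences of zp3c and otx2a ran in the direction of the stage labels. The germ cell genes NANOS3, DDX4 and tdrd7a, listed for a cell type and not as stage markers, were all called lower at bud by limma. Over all transcripts tested, 38.2% were called lower. None of the genes listed for the enveloping layer or the yolk syncytial layer was among the transcripts that could be named.

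The 190 transcripts carried 17.5% and 17.8% of all TPM at bud, against 19.8% and 17.2% at sphere. The 2 sphere samples lay on either side of both bud samples. The mean share was 17.6 ± 0.168% at bud and 18.5 ± 1.84% at sphere (SD, n = 2 each), and with 2 samples against 2 an exact two-sided permutation test cannot give a p below 0.333. The 149 transcripts that met the same minimum but lay outside the ratio window carried 19.1% and 19.0% at bud, against 9.98% and 9.45% at sphere. Of these, 105 had a ratio above the window and 44 a ratio below it.

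**Figure D1:**
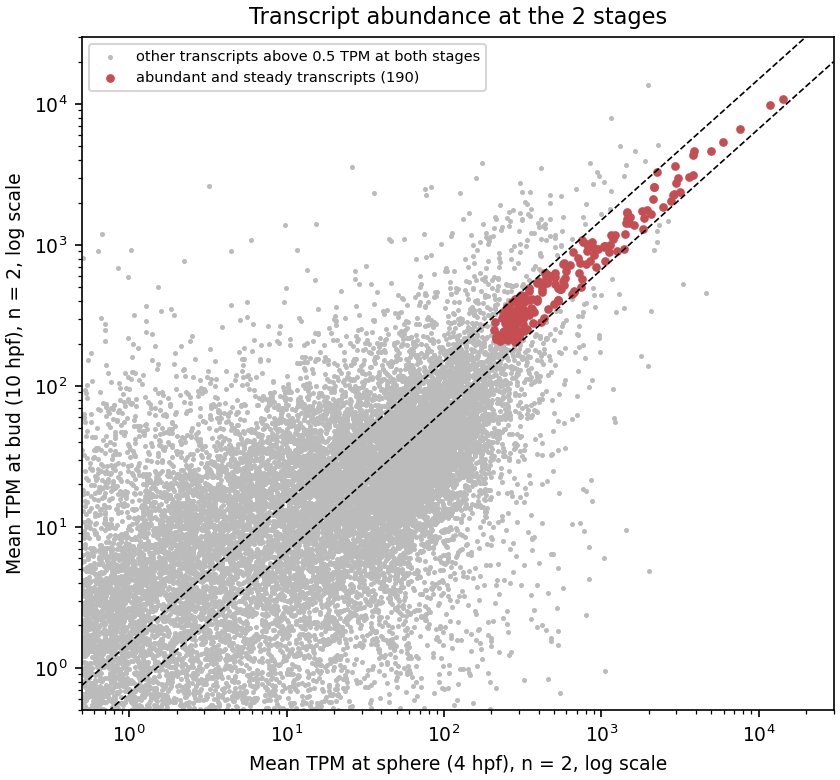
Mean TPM at bud (vertical axis) against mean TPM at sphere (horizontal axis), both on log scales. The counts given here cover the 339 transcripts with at least 200 TPM in every sample and no other points. Of these 339, the 190 members inside the ratio window lie along the diagonal, 105 lie above the window and 44 below it.

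Abundance was very unevenly spread within the group. The mean TPM over the stages ran from 214 to 12589, with a median of 459 and quartiles of 293 and 922. The group held 87 transcripts of at least 500 TPM, 44 of at least 1000 TPM, 21 of at least 2000 TPM and 4 of at least 5000 TPM. The 10 most abundant held 31.0% and 32.7% of the group's TPM at bud, against 33.0% and 34.8% at sphere. By mean TPM over the 4 samples, 14 of the 20 most abundant transcripts of the whole table belonged to the group, including the first and the second. By sample, the first ranked 2 and 3 at bud, against 1 and 2 at sphere. The second ranked 3 and 2 at bud, against 2 and 1 at sphere, so neither stood first in a bud sample.

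A steady TPM was not a steady place in the order of abundance. By stage mean, 148 transcripts reached 1000 TPM at bud, against 77 at sphere, and 280 against 198 reached 500 TPM. At 200 TPM the counts ran the other way, with 730 at bud and 790 at sphere. Among the members, 152 stood further down the order at bud than at sphere and 38 stood further up. The median rank of the members was 312.5 at bud and 246.5 at sphere, counted from the most abundant transcript. Of the 100 most abundant transcripts, 32 at bud and 52 at sphere were members.

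The ratio of bud to sphere ran from 0.671 to 1.467, with a median of 0.995 and quartiles of 0.864 and 1.18. The rule fixes these limits, so they are a description of the group. The ratio was above 1 for 92 transcripts and below 1 for 98, and 63 lay between 0.9 and 1.1. The rule used stage means, and for 148 of the 190 every one of the 4 pairings of a bud with a sphere sample also fell inside the window. For the other 42, at least 1 pairing fell outside it.

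The stage difference was set against the difference between replicates. It was smaller than the larger of the 2 replicate differences for 102 members and smaller than both for 47. The interval that limma gave for the difference (95%, on log2(TPM + 1)) lay wholly inside the ratio window for 103 members and ran past an edge for 87, and it included no difference for 123. Its median half-width was 0.27 on the log2 scale.

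The test across all 20332 transcripts called 30 members higher and 28 lower at bud (limma, Benjamini-Hochberg adjusted p under 0.05), with 132 not called. Over all transcripts tested, 37.2% were called higher and 38.2% lower, 75.4% in all. For 56 members the lower bud sample exceeded the higher sphere sample, for 56 the reverse held, and the stages overlapped for 78. Over all transcripts tested, 44.2% had bud wholly above and 44.3% wholly below, 88.5% in all. The rule chose the members on this same contrast, so nothing is read from the gap between the counts. Median-of-ratios scaling called 41 members higher and 16 lower, beside 7773 higher and 7488 lower over all transcripts tested, 75.1% in all. Quantile normalization called 11 members higher and 78 lower, beside 7069 higher and 7562 lower over all transcripts tested, 72% in all. With 1 library left out, fewer transcripts were called in the whole table as well, from 57.6% without bud replicate 1 and 58.2% without bud replicate 2 to 70.4% without sphere replicate 1. Members called higher numbered 6 without bud replicate 2, 13 without bud replicate 1 and 18 without sphere replicate 2. Members called lower numbered 1 without bud replicate 1, 8 without bud replicate 2 and 14 without sphere replicate 1.

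Transcripts lay on either side of the edges of the rule. Just inside, the lowest ratios were 0.671, 0.673 and 0.691 and the highest were 1.467, 1.46 and 1.45. Just outside, the nearest ratios were 0.662, 0.661 and 0.643 below and 1.502, 1.54 and 1.55 above. The members closest to the minimum had 202, 205 and 206 TPM in their lowest sample, and the transcripts that missed it most narrowly had 199.7, 199.3 and 198.4 TPM. Another 288 transcripts had a ratio inside the window and a lowest sample of 100 TPM or more but under 200 TPM.

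Ratios inside the window took up a varying share of transcripts of different abundance. Between 5 and 50 TPM of mean abundance, 19.5% of 9099 transcripts had a ratio inside the window. The share was 28.6% of 483 transcripts between 200 and 500 TPM, 29.7% of 145 between 500 and 1000 TPM and 45.4% of 97 at 1000 TPM or more. In the most abundant class, 44.3% lay above the window and 10.3% below it. Between 50 and 200 TPM the split ran the other way, with 20.5% above and 54.1% below. These shares use the same values as the rule and are given as a description.

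**Figure D2:**
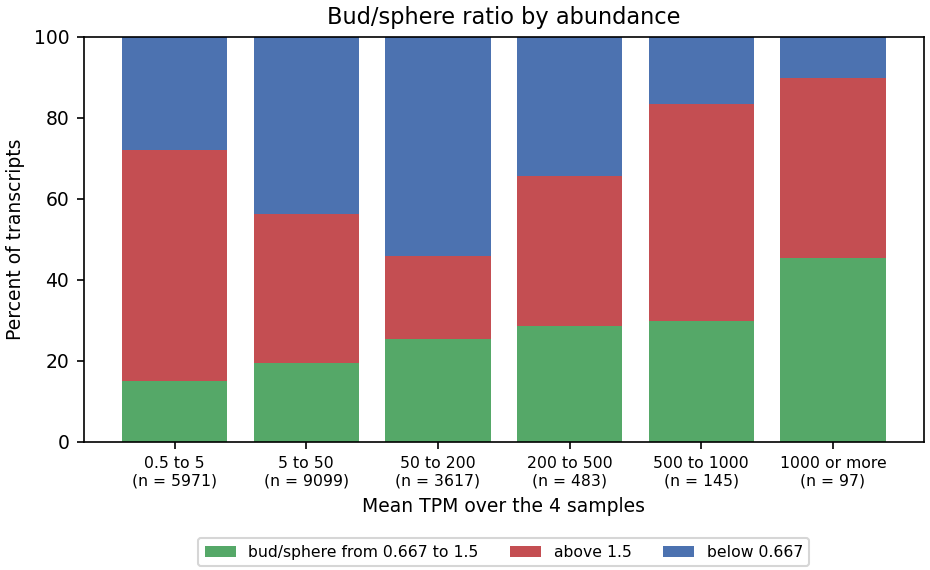
Percent of transcripts with a bud/sphere ratio above, inside and below the window of 0.667 to 1.5 (vertical axis) in classes of mean TPM over the stages (horizontal axis). The share inside the window is 19.5% in the class of 5 to 50 TPM and 45.4% in the class of 1000 TPM or more.

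The table lists transcripts by Ensembl identifier only. A gene symbol is given here for 10 of the 190 members, attached through the part of the study's gene table that was available. The other 180 are described by their values. Symbols are spelled as the table of gene names has them. Of the 10, 5 had a ratio above 1 and 5 below it, 5 lay between 0.9 and 1.1, and 9 kept every pairing of samples inside the window. The stages overlapped for 5 of them, bud lay wholly above sphere for 3 and wholly below it for 2. Of the 10, limma called 2 higher at bud, PCNA and IPO5, and 0 lower, and 8 were not called. Over all transcripts tested, 88.5% had no overlap and 75.4% were called in either direction. The rule chose the members on this same contrast.

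The most abundant named member was actb1 (ENSDART00000054987), which encodes the cytoplasmic beta-actin of the cytoskeleton and is a common reference gene. It had 1141 and 1195 TPM at bud, against 1068 and 1244 TPM at sphere. The 2 bud values fell between the 2 sphere values, and the ratio of the means was 1.01. Its rank among all transcripts was 125 and 110 at bud, against 73 and 52 at sphere, so beta-actin kept its TPM while more transcripts stood above it. A second zebrafish gene encodes a nearly identical beta-actin, and reads shared by such copies could have been divided between them by the quantification.

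The polyubiquitin gene ubc (ENSDART00000157458) supplies ubiquitin as a chain of fused repeats that is cut into single units. It had 1093 and 1021 TPM at bud, against 827 and 924 TPM at sphere, a ratio of 1.21 with no overlap between the stages. Ubiquitin repeats are nearly identical between genes, so the division of reads is uncertain here too. Of the 5 transcripts named in the list of ubiquitin and SUMO genes, ubc was the member and 4 had a ratio inside the window. Over all 1579 transcripts that could be named and tested, 290 had such a ratio. Of the 5, 2 were called lower and 0 higher. One of the lower ones, the conjugating enzyme UBE2K, was at 0.0056 on the log2 scale and not called under quantile normalization.

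PCNA (ENSDART00000076304), the ring that clamps DNA polymerase to its template during replication, came closest of the named members to the upper edge. It had 1027 and 1137 TPM at bud, against 706 and 792 TPM at sphere. The stages did not overlap, and the ratio was 1.44. It is the named member for which 1 pairing of samples fell outside the window, and under median-of-ratios scaling it left the group. Among 8 named cell cycle transcripts, 2 were called higher and 3 lower at bud. Over all transcripts tested, 37.2% were called higher and 38.2% lower. The higher ones were PCNA itself and CDK2AP1, which had 50.9 and 73.6 TPM at bud, against 9.62 and 10.7 TPM at sphere. Values of the lower ones follow for plk1 and CCNA1. The mitotic kinase plk1 had 260 and 270 TPM at bud, against 496 and 625 TPM at sphere, and CCNA1, the cyclin A of germ cells and early embryos, had 3.56 and 3.83 TPM at bud, against 519 and 630 TPM at sphere.

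Genes that act on RNA and on translation formed the next group of named members. The DEAD-box helicase DDX39A (ENSDART00000014727), which works in splicing and mRNA export, had 552 and 616 TPM at bud, against 582 and 592 TPM at sphere. Its ratio of 0.995 was the nearest to 1 among the named members. KHSRP (ENSDART00000038330), a KH-domain protein that in mammals promotes decay of AU-rich mRNAs, had 445 and 532 TPM at bud, against 579 and 538 TPM at sphere. Its bud samples lay below its sphere samples, with a ratio of 0.875, and the nearest bud and sphere values were close.

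ETF1 (ENSDART00000193938), the release factor that ends translation at stop codons, had 301 and 311 TPM at bud, against 302 and 336 TPM at sphere. The stages overlapped and the ratio was 0.958. PAIP2B (ENSDART00000010211) encodes a partner of poly(A)-binding protein that represses translation in mammals. It had 265 and 289 TPM at bud, against 300 and 333 TPM at sphere, so the bud samples were the lower ones, with a ratio of 0.876.

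The remaining 3 named members belong to transport, chromatin and protein folding. IPO5 (ENSDART00000058876), an importin that carries proteins such as ribosomal proteins into the nucleus, had 525 and 544 TPM at bud, against 405 and 434 TPM at sphere, with no overlap and a ratio of 1.27. The gene smarca5 (ENSDART00000123972) encodes the ATPase of ISWI chromatin remodelling complexes. It had 308 and 330 TPM at bud, against 284 and 322 TPM at sphere, with overlapping stages and a ratio of 1.05.

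The cyclophilin A gene ppiab (ENSDART00000166085), whose product isomerizes peptide bonds at proline, had 253 and 227 TPM at bud, against 209 and 291 TPM at sphere. Both bud values fell between the sphere values, and no other named member had sphere replicates further apart on the log scale. Cyclophilin A has another close copy in zebrafish, ppiaa, with which it may share reads.

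**Figure D3:**
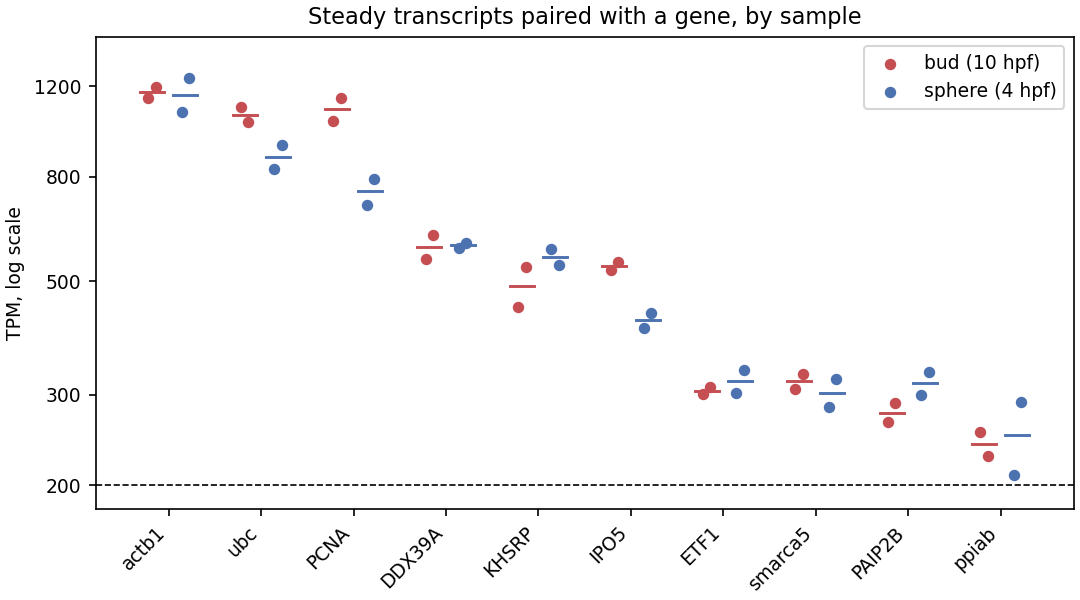
TPM of each sample (points) on a log axis for the 10 named members, in order of mean abundance, with red for bud, blue for sphere, horizontal bars at the stage means and a dashed line at 200 TPM. The bud and sphere points overlap for 5 of the 10, including actb1 and DDX39A, and are furthest apart for PCNA.

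Transcripts that met the same minimum, could be named and lay outside the window numbered 16, of which 10 were above it and 6 below. Closest to the members was CTNND1, the adherens junction protein p120-catenin, with 200 and 221 TPM at bud, against 321 and 316 TPM at sphere, and a ratio of 0.661. Under median-of-ratios scaling it entered the group. Among the others below the window were LMNB1, a nuclear lamin, at a ratio of 0.418 and TMED2, a cargo receptor of the secretory pathway, at 0.503. Above the window the ratios ran from 1.78 for the histone chaperone ANP32B to 7.09 for the ribosomal protein RPS6.

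**Figure D4:**
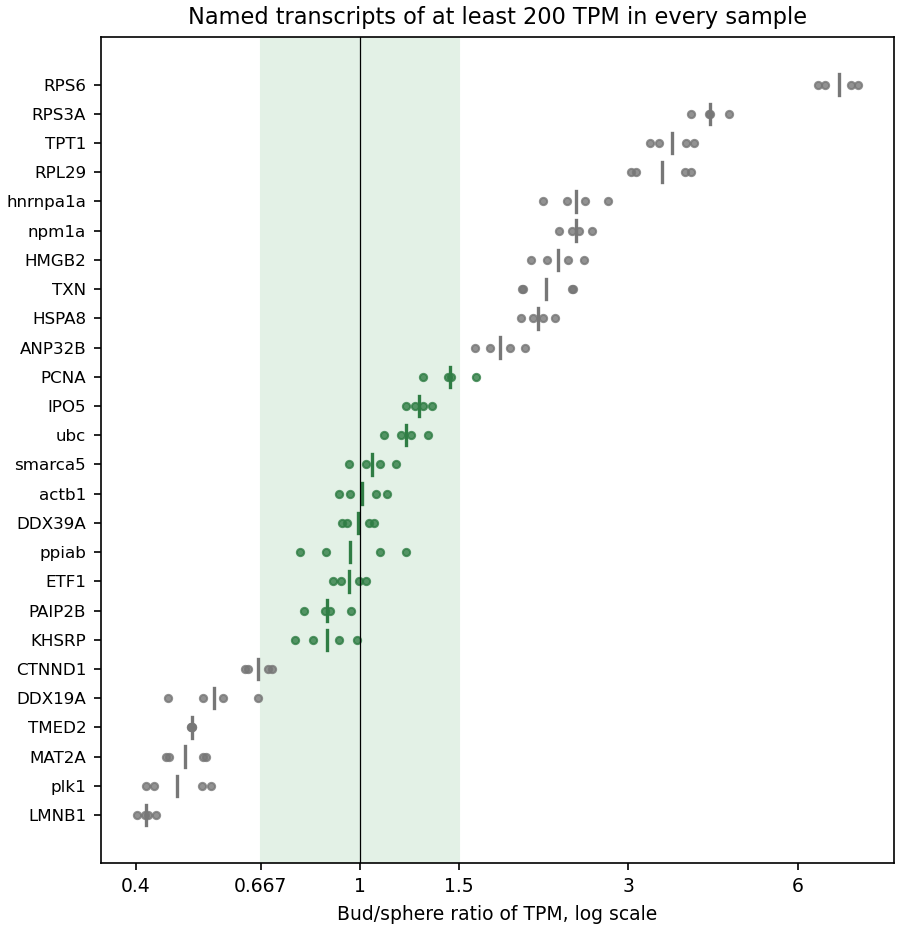
Ratio of bud to sphere mean TPM on a log axis for the 26 named transcripts with at least 200 TPM in every sample, with vertical bars at the ratio of the stage means, points at the 4 pairings of samples and the window of 0.667 to 1.5 shaded. By their means, the 10 members lie between 0.875 and 1.44, the 6 transcripts below the window between 0.418 and 0.661 and the 10 above it between 1.78 and 7.09.

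The members were placed among gene lists filled by symbol, counted over the 1579 transcripts that could be named and tested. The lists are not limited to genes used by every cell. The cytoskeleton list, for 1, holds myl10, with 21.5 and 13.2 TPM at bud and 0 TPM in both sphere samples. Over all 1579, limma called 603 higher and 618 lower at bud, and the median difference was 0.02 on the log2 scale. The ratio lay inside the window for 290 of the 1579. Of the 6 cytosolic ribosomal protein transcripts, 5 were called higher and 1 lower, and 0 were members. At least 200 TPM in every sample was reached by 3 of the 6, and 0 had a ratio inside the window. RPS6 had 1627 and 1424 TPM at bud, against 212 and 218 TPM at sphere, a log2 difference of 2.82 ± 0.11 (SE, limma, Benjamini-Hochberg adjusted p = 2.5e-05). The exception was faub, a ribosomal protein made as a fusion with a ubiquitin-like domain, which had 93.2 and 122 TPM at bud, against 218 and 271 TPM at sphere.

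The 3 translation factor transcripts held the member ETF1, and 0 of the list were called higher and 1 lower. The lower one was eif5b, an initiation factor that joins the ribosomal subunits, at a log2 difference of -0.37, and under quantile normalization it was at 0.18 and not called. Its call was also lost under median-of-ratios scaling, without a trend and without either bud replicate. The list of 5 chromatin and acidic nuclear proteins had 5 called higher and 0 members. At least 200 TPM in every sample was reached by 3 of the 5, and 0 had a ratio inside the window. Among the 5 was HMGB2, a DNA-bending protein, with 4743 and 5515 TPM at bud, against 2354 and 2207 TPM at sphere. Of 3 histone transcripts, 2 were called higher and 0 lower. Of 7 hnRNP, SR and snRNP transcripts, which encode splicing proteins, 5 were called higher and 1 lower. None of the transcripts in these lists of histones and splicing proteins was a member. The rule requires at least 200 TPM in every sample, which 0 of the 3 histone and 1 of the 7 splicing transcripts reached. The ratio lay inside the window for 1 histone and 1 splicing transcript, beside 290 of all 1579 named.

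Of 11 chaperone transcripts, 6 were called higher and 3 lower, and ppiab was the member. Subunits of the same chaperonin differed: CCT8 had 149 and 149 TPM at bud, against 147 and 158 TPM at sphere, below the minimum of the rule, while CCT4 had 471 and 434 TPM at bud, against 109 and 112 TPM at sphere. Of 11 actin and tubulin cytoskeleton transcripts, 6 were called higher and 3 lower, and actb1 was the member. The call of ACTR1A, a subunit of dynactin and 1 of the 3, was lost under quantile normalization, at a log2 difference of 0.14, and also without a trend and without either bud replicate. The list's TPM summed to 1524 and 1581 at bud, against 1494 and 1764 at sphere, and actb1 made up most of each sum.

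Of 11 nuclear transcripts of oxidative phosphorylation, 5 were called higher and 1 lower, and 6 had a ratio inside the window at levels below the minimum of the rule. Over all 1579 named transcripts, 290 had a ratio inside the window. Of 6 mitochondrial carriers, 2 were called higher and 3 lower. Of 2 proteasome transcripts, 0 were called higher and 1 lower. The single glycolysis transcript, pgam1b, was called lower and the single tRNA synthetase, IARS1, higher. No mitochondrially encoded transcript was among those named. These counts cover the transcripts that could be named and not the full lists.

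The most abundant members are not named here. The first, ENSDART00000188079, had 11944 and 9908 TPM at bud, against 16230 and 12274 TPM at sphere, with no overlap and a ratio of 0.767. The second, ENSDART00000125128, had 8047 and 11569 TPM at bud, against 10067 and 13484 TPM at sphere, so its replicates differed more than its stages, and the ratio was 0.833. The bud mean was thus the lower one in both.

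The most abundant unnamed members with a ratio above 1 showed overlapping stages. ENSDART00000073402 had 3743 and 5524 TPM at bud, against 3572 and 4248 TPM at sphere, a ratio of 1.19. ENSDART00000152735 had 4207 and 4558 TPM at bud, against 4332 and 3356 TPM at sphere, a ratio of 1.14. Over the 10 most abundant members, all at or above a mean of 3286 TPM, the ratio ran from 0.767 to 1.23, with 7 below 1 and 3 above. The stages overlapped for 6 of these 10, which the rule chose on this contrast, while 88.5% of all transcripts tested had no overlap.

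Replicates of most members were close to each other at both stages. The median absolute log2 difference between replicates was 0.112 at bud and 0.112 at sphere. For the transcripts that met the same minimum outside the window it was 0.115 at bud and 0.106 at sphere. The upper quartile for the members was 0.196 at bud and 0.272 at sphere, against 0.192 at bud and 0.186 at sphere for the transcripts outside the window.

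A few members were far apart between replicates, and in these replicate 1 was the higher one at the stage concerned. Replicates differed over 2-fold for 3 members at bud and 5 at sphere, and replicate 1 was higher in each case. At over 1.5-fold, 15 of 16 members had the higher value in replicate 1 at sphere and 6 of 8 at bud. Among the 149 transcripts outside the window, 1 at bud and 2 at sphere were over 2-fold apart, with replicate 1 higher in 0 and 2 of these. Over 1.5-fold apart were 2 of the 149 at bud and 4 at sphere, with replicate 1 higher in 1 and 4. At this limit the members thus had more such transcripts at both stages.

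All 5 transcripts over 2-fold apart were unnamed, and they are singled out here after their values were seen. ENSDART00000188176 and ENSDART00000186841 had identical values in every sample, 3780 and 1352 TPM at bud, against 4016 and 320 TPM at sphere, so the 190 members held 189 distinct sets of values. Their ratio of 1.18 averages replicates that differ by far more than the stages do. ENSDART00000182484 had 1539 and 559 TPM at bud, against 1204 and 325 TPM at sphere, with a ratio of 1.37.

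The other two were close between bud replicates only. ENSDART00000186761 had 2048 and 2048 TPM at bud, against 4772 and 760 TPM at sphere, a ratio of 0.741. ENSDART00000185964 had 719 and 833 TPM at bud, against 1832 and 267 TPM at sphere, a ratio of 0.739. In both, the bud values lay between the 2 sphere values, so the stages overlapped. Without the 5 transcripts the group held 185 members and 16.7% of TPM at bud.

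**Figure D5:**
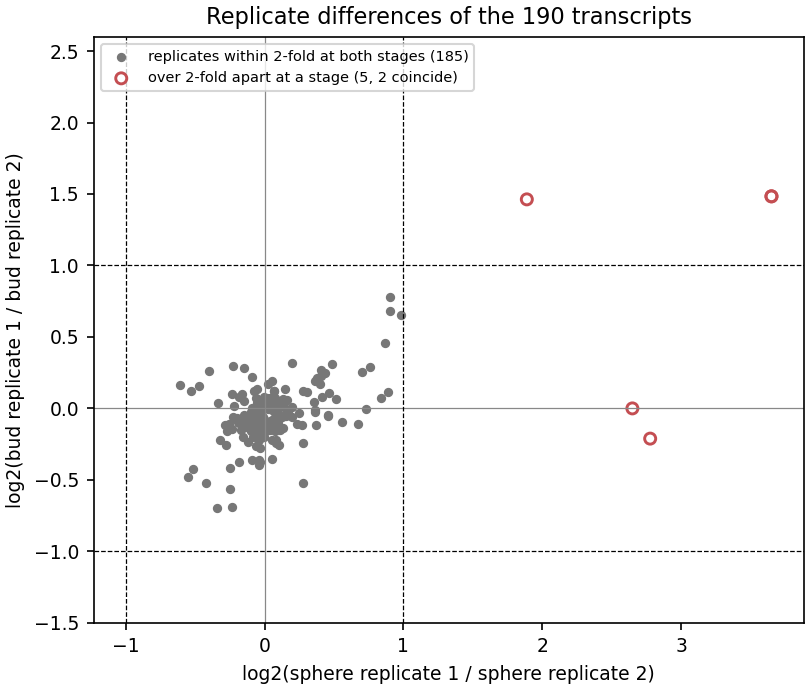
Log2 ratio of replicate 1 to replicate 2 at bud (vertical axis) against the same ratio at sphere (horizontal axis) for the 190 members. Most points lie near 0 on both axes, and the 5 members over 2-fold apart lie to the right, with replicate 1 the higher at sphere.

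Replicate differences of the members ran in parallel at the stages. Over the 190 members the log2 ratio of replicate 1 to replicate 2 at bud correlated with that at sphere, with Pearson's r of 0.64 and Spearman's rho of 0.36. Without the 5 transcripts over 2-fold apart, r was 0.50. Over the 149 transcripts that met the same minimum outside the window r was -0.50 and rho -0.10. Over the 147 of these within 2-fold at both stages r was -0.02. Over all transcripts tested, most of them far less abundant, r was 0.09. The rule takes its ratio from stage means, so a transcript with replicates far apart can be a member when the means are close. Whether the rule bears on these values was not tested. The points share the same 4 libraries and are not independent, so these values are a description. What moves the replicates in parallel was not tested.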

How the data were processed

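Per the labels, rRNA-depleted total RNA of 2 bud and 2 sphere samples was sequenced. The authors deposited TPM for 24573 transcripts of protein-coding genes. Each sample sums to 1000000, so depth and counting error cannot be read from the values. The study's methods give the reads per library as a range, with no value per sample. The submitters' processing notes name build GRCz11, Trim Galore 0.6.4, STAR 2.6.1c, featureCounts 1.6.2 and DESeq2 1.38.1 for the series. The study's methods name Kallisto for coding-gene TPM. For codon usage they name RSEM with a reference set of principal transcripts and a combined TPM table by transcript, which is the form of the table used here, although no source states which tool made it.

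Samples were grouped by the stage in their labels. The members and gene lists were chosen with earlier results of these data known. Membership was computed from TPM as deposited. The stages were compared with limma 3.58.1 in R 4.3.3 (eBayes with a trend) on log2(TPM + 1), bud minus sphere, for the 20332 transcripts whose mean exceeded 0.5 TPM at bud or at sphere, and p-values were adjusted by Benjamini and Hochberg at a threshold of 0.05. On this scale the change of low transcripts is understated.

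A transcript was given a gene when its stage means equalled the averages in the study's gene table to 6 significant digits at both stages. The gene table was available in part only, so a member without a gene may be listed in the part not read. Of the 1998 genes read, 1643 were above 0.5 TPM, all with exactly 1 such transcript. A symbol was given to 1579, 1 further symbol not being reported here. That table was used for names only. Members with a symbol are named, and of the others the 2 most abundant with a ratio above 1 and the 2 most abundant below it. No genome of the build used in the study was given, so positions and sequences were not used here. Replicates are said to come from different days, with no day given per sample. Alternatives changed the pseudocount, the filter, the scaling, the trend, the replicate block, the minimum, the window and each replicate. Tables were handled with Python 3.11.15, numpy 2.4.6 and pandas 2.3.3.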

Additional observations from a re-analysis of the deposited data

How the results depend on the processing

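The number of members was 478 with a minimum of 100 TPM and 63 with a minimum of 500 TPM, and it stayed within 1.5 times 190 under the other settings. The bud share was 22.1% and 12.6% with those minimums, and the sphere share was 23.2% and 13.6%. With a window of 0.8 to its reciprocal the shares were 12.1% at bud and 12.4% at sphere, with a window of 0.5 to 2 they were 20.5% and 21.0%, and with every pairing of samples inside the window they were 10.9% and 11.1%. The bud share was 17.1% under median-of-ratios scaling, 18.3% with each sample rescaled to its total without its 100 most abundant transcripts, 16.7% without the members over 2-fold apart and 17.4% with identical values counted once, the last of these settings and the one before it being chosen after seeing the data. Leaving out 1 replicate gave bud shares of 16.3% to 16.8%, sphere shares of 16.6% to 18.2% and median ratios of 0.971 to 1.01. The median ratio was 0.970 and 0.952 with the lower and the higher minimum. Members called higher numbered 11 under quantile normalization and 17 without a trend, and 6 to 25 with 1 replicate left out. Members called lower numbered 16 under median-of-ratios scaling, 78 under quantile normalization and 11 without a trend, and 1 to 19 with 1 replicate left out. Without a trend, 7529 of all transcripts tested were called higher and 7623 lower, 74.5% in all. Quantile normalization turned the log2 difference of ACTR1A to 0.14, of UBE2K to 0.0056 and of eif5b to 0.18. The cause of these changes was not tested. With the replicate number as a block, 33 members were called higher and 30 lower, and 7600 and 7824 of all transcripts. With 2 pairs and no day per sample, the numbers were not taken to pair the samples. TPM give no depth, and 2 replicates per stage limit the precision.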
